A study of Saccharomyces cerevisiae with 6 samples.

Results

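The yeast cytosolic ribosome is built from an RNA core and ribosomal proteins of a 40S (small) and a 60S (large) subunit. The genes described here are the 80 cytosolic ribosomal protein genes that can be followed separately on the arrays, 33 of the 40S subunit and 47 of the 60S subunit. They were chosen by name: a probe set was kept if its only annotated gene symbol was RPL or RPS with a number, or 1 of the stalk genes RPP0, RPP1A, RPP1B, RPP2A and RPP2B. The arrays hold probe sets for 5656 genes under a single symbol. Of 9335 probe sets, 105 met this rule, and the brightest by mean over all arrays stands for each gene. The R64 gene table holds 137 such genes. Of the other 57, 54 are on at least 1 of 59 probe sets that name both genes of a duplicated pair, which are described apart, and the remainder were not analysed here.

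The study measured total RNA of Saccharomyces cerevisiae strain W303-1a on 6 oligonucleotide arrays, each labelled in 1 colour. There are 2 arrays of the wild type, 2 of a gpr1 deletion mutant and 2 of a gpa2 deletion mutant of that strain. The labels give no medium, growth stage or further alleles, and do not say whether a group's arrays stem from separate cultures or clones, so p-values measure only the spread between these arrays, which may be technical. The source of gpa2 deletion array 2 is marked as a 2nd experiment, which no other label says, so that array and experiment cannot be told apart in the gap between the gpa2 deletion arrays. The title of the series names glucose-dependent cell size and a receptor system as its subject.

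Gpr1 is a receptor of the plasma membrane for glucose and sucrose, and Gpa2 is the G protein alpha subunit it acts through. Both feed adenylate cyclase and protein kinase A, which together with the TORC1 kinase is known to raise transcription of ribosomal protein genes when cells are given glucose. These genes are among the most strongly transcribed in growing yeast, are bound by Rap1, Fhl1 and Ifh1, and usually move together. Most are present as a duplicated pair, called A and B, whose proteins are identical or nearly so, and the remainder are single-copy.

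The deposited intensities, on a linear scale, had array medians over all probe sets from 225.1 to 562.9, a span of 2.50-fold, with wild-type array 1 and gpr1 deletion array 1 the brightest and both gpa2 deletion arrays the dimmest. The arrays were therefore set to 1 common distribution by quantile normalisation, values were put on a log2 scale, and limma was fitted to 6956 probe sets. The deleted genes matched their labels. GPR1 read 1086 and 1014 in wild type against 5.10 and 2.80 in the gpr1 deletion, and GPA2 read 2410 and 1900 in wild type against 9.30 and 10.9 in the gpa2 deletion. Markers of mating type a, that of W303-1a, lay between 495.7 and 14439, and those of mating type alpha between 33.8 and 691.1. As a sign of RNA quality, the ratio of 3′ to 5′ control probe sets was 1.26 to 1.54 for ACT1 over the arrays. For SPT15 it lay between 3.16 and 4.83, except on wild-type array 2, where it reached 10.3.

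Ribosomal protein genes filled the top of the intensity scale on every array. Averaged over the arrays, 70 of the 80 lay at or above the 95th percentile of all probe sets and 76 at or above the 90th, and all 80 passed the filter on dim probe sets. Between 24 and 29 of the 100 brightest probe sets on an array were members. The highest mean log2 values belonged to RPS31 (14.66), which encodes a ubiquitin fusion, RPS1A (14.65), RPL17B (14.62) and RPL16A (14.61). The lowest belonged to RPL9A (10.91), RPL15B (10.99), RPL21B (12.11) and RPS26B (12.62). These values place each probe set on the scale and do not rank genes, since probe sets differ in how well they hybridise. The median deposited intensity of the members was 18659 and 17452 on the wild-type arrays, 18378 and 11444 on the gpr1 deletion arrays, and 11018 and 11606 on the gpa2 deletion arrays. This span of 1.69-fold was narrower than the span of the array medians. After normalisation the member median was 13.86 and 13.87 on the wild-type arrays, 13.80 and 13.78 without GPR1, and 13.90 and 13.85 without GPA2, on the log2 scale.

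Loss of GPR1 left no ribosomal protein gene past the threshold. At an adjusted p under 0.05 in limma, 0 of 80 members were called in the comparison of the gpr1 deletion with wild type, against 0.230% of all probe sets tested, and the smallest adjusted p among members was 0.818. At an unadjusted p under 0.05, 0 members were higher and 0 lower, against 3.62% and 3.02% of all probe sets. The median log2 change of the members was -0.003, beside -0.0007 over all probe sets, and 39 of 80 values were positive. Both gpr1 deletion arrays lay above both wild-type arrays in 6 members (7.5%) and below them in 3 (3.75%), against 16.1% and 16.3% of all probe sets.

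The 6 members with the highest log2 change in the gpr1 deletion were RPL21B (4.29), RPS21A (2.73), RPL37A (1.12), RPS21B (0.82), RPL21A (0.79) and RPP2B (0.64). In none of them were the gpr1 deletion arrays apart from the wild-type arrays. The 6 lowest were RPL28 (-0.27), RPS1B (-0.25), RPS26B (-0.24), RPL27B (-0.22), RPL36B (-0.22) and RPL16B (-0.22). The median standard error of a member's change was 0.207.

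In the gpa2 deletion more members stood apart from wild type, in both directions, and again none passed the threshold, though RPL21A did (adjusted p 0.0386) once the replicate number was fitted as a block. Whether the counts of the deletions differ was not tested. In the comparison of the gpa2 deletion with wild type, limma called 0 of 80 members at an adjusted p under 0.05, against 0.776% of all probe sets. At an unadjusted p under 0.05, 9 members (11.25%) were higher and 4 (5%) lower, against 6.10% and 5.35% of all probe sets. The gpa2 deletion arrays lay above the wild-type arrays in 22 members (27.5%) and below them in 19 (23.75%), against 19.0% and 20.8%. The median log2 change was 0.02, beside -0.02 over all probe sets, and 42 of 80 values were positive. The comparison of each deletion with wild type uses the same wild-type arrays, so the values of a gene in the 2 deletions are not independent.

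The deletions were also compared with each other. At an adjusted p under 0.05 in limma 0 of 80 members were called, against 0.0288% of all probe sets. At an unadjusted p under 0.05, 3 members (3.75%) were higher in the gpa2 deletion and 2 (2.5%) lower, against 1.27% and 1.08%. The arrays of the 2 deletions were apart in 15 members on the higher side (18.75%) and 11 on the lower (13.75%), against 15.9% and 15.0%. The 6 highest values in this comparison were those of RPL21B (1.64), RPL21A (1.27), RPL37A (1.18), RPS21A (1.14), RPS22A (1.07) and RPS0B (0.60). The 6 lowest were those of RPL39 (-0.65), RPS22B (-0.50), RPS7A (-0.48), RPL3 (-0.36), RPL25 (-0.29) and RPS10A (-0.29).

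The 40S and 60S genes had like medians. In the gpr1 deletion the median log2 change was -0.003 for the 40S genes and -0.004 for the 60S genes. In the gpa2 deletion it was 0.02 for both, and between the deletions it was 0.02 and -0.01. The difference of the subunit medians varied between arrays of 1 group with an SD of 0.233, larger than any of these differences. Of the 9 members higher in the gpa2 deletion at an unadjusted p under 0.05, 6 belong to the 40S subunit and 3 to the 60S subunit.

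**Figure D1:**
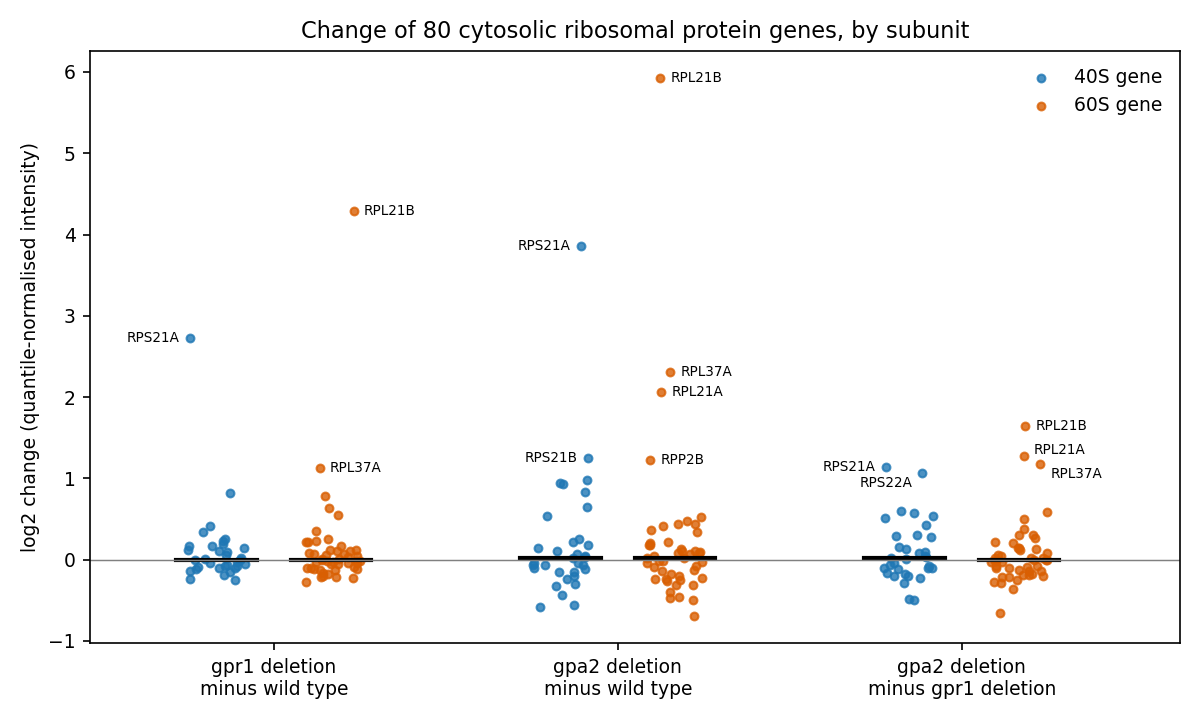
Log2 change of each of the 80 genes (points) in the 3 comparisons, on the quantile-normalised log2 scale, with 40S genes in blue and 60S genes in orange; black bars are subunit medians and names mark genes beyond 1 in size. The medians lie at 0 within 0.02, and the points beyond 1 are all on the positive side.

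RPL21A, which encodes a 60S protein, was the member closest to the threshold. It read 4933 and 7498 on the wild-type arrays, 8255 and 7937 without GPR1, and 19802 and 12229 without GPA2, as deposited. Both gpa2 deletion arrays were above all others, even before normalisation and although they are the dimmest arrays. After normalisation it read 11.67 and 12.66 on the wild-type arrays, 12.58 and 13.32 without GPR1, and 14.54 and 13.91 without GPA2. The log2 change in the gpa2 deletion was 2.06 (SE 0.379, a fold of 4.17), with an adjusted p of 0.0565 in limma. With the replicate number as a block it passed, at an adjusted p of 0.0386, although the labels do not say that the numbers pair the arrays. Over the other scalings, floors and filters and with each array left out, it lay between 1.36 and 2.55 and its adjusted p between 0.00935 and 0.351. It passed when either wild-type array was left out, at 1.66 (adjusted p 0.0427) for the first and 2.55 (adjusted p 0.00935) for the second. The lone wild-type array is then assumed to vary like the deletion arrays. Without gpa2 deletion array 1 the change was 1.71 (adjusted p 0.351), and without gpa2 deletion array 2 it was 2.31 (adjusted p 0.173). Against the gpr1 deletion, RPL21A was higher by 1.27 on the log2 scale (unadjusted p 0.00907), and the gpr1 deletion itself gave 0.79 against wild type with overlapping arrays.

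Among 40S genes, RPS22A, RPS0B, RPS29A, RPS28A and RPS2 read higher in the gpa2 deletion at an unadjusted p under 0.05, with adjusted p of 0.153 to 0.410 in limma. RPS21B, a further 40S gene at an unadjusted p of 0.0491 (adjusted p 0.433), is described with wild-type array 1. RPS2 encodes a protein of the mRNA entry channel that takes part in decoding accuracy. Its log2 values were 13.66 and 13.73 on the wild-type arrays, 13.70 and 13.93 without GPR1, and 14.43 and 14.27 without GPA2. The gpa2 deletion arrays were above the other 4, which lay close together, and the change was 0.65 (SE 0.184). RPS22A read 13.93 and 13.33 on the wild-type arrays, 13.20 and 13.88 without GPR1, and 14.87 and 14.34 without GPA2. Its change was 0.97 against wild type and 1.07 against the gpr1 deletion, and again only the gpa2 deletion arrays stood apart. RPS0B, whose protein belongs to the laminin receptor family and is needed for 40S maturation, read 13.58 and 14.10 on the wild-type arrays, 13.77 and 14.59 without GPR1, and 14.79 and 14.78 without GPA2. Its change was 0.94 without GPA2 and 0.34 without GPR1, where the arrays overlapped with wild type.

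RPS29A, which encodes a small zinc-binding protein, had log2 values of 13.27 and 12.93 on the wild-type arrays, 13.27 and 13.76 without GPR1, and 14.06 and 13.99 without GPA2. Its changes were 0.42 without GPR1 and 0.93 without GPA2 (unadjusted p 0.00305). RPS28A gave 0.26 and 0.83, with values from 13.01 to 13.68 in wild type and from 14.07 to 14.28 in the gpa2 deletion. On the deposited scale the wild-type and gpa2 deletion arrays of RPS28A overlapped, with 11814 and 14910 against 12884 and 16971. Those of RPS2 overlapped too, with 17145 and 15390 against 17956 and 16788. So did those of RPS22A (19367 and 11860 against 28092 and 17801) and RPS29A (13640 and 8965 against 12851 and 12945). For RPS0B they were apart, with 16535 and 20691 against 25192 and 25204. RPL24B, of the 60S subunit, had the smallest of these changes at 0.41, and read 20561 and 20828 in wild type against 20802 and 18716 in the gpa2 deletion before normalisation.

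RPL39, RPS22B, RPS7A and RPL3 read lower in the gpa2 deletion at an unadjusted p under 0.05, with adjusted p of 0.242 to 0.420 in limma. RPL39, a very small protein that lines the exit tunnel of the nascent chain, gave 14.35 and 14.32 on the wild-type arrays, 14.34 and 14.24 without GPR1, and 13.42 and 13.85 without GPA2, on the log2 scale. Its change was -0.70 in the gpa2 deletion (SE 0.201, 1.62-fold lower) and -0.04 in the gpr1 deletion, with only the gpa2 deletion arrays low. RPL3 is a core protein near the peptidyl transferase centre and read 13.87 and 13.97 on the wild-type arrays, 13.94 and 13.68 without GPR1, and 13.33 and 13.57 without GPA2. Its change was -0.47 without GPA2 and -0.11 without GPR1. RPS22B, the partner of RPS22A, had a change of -0.59 in the gpa2 deletion, from 14.85 and 14.39 in wild type to 13.90 and 14.16. The other probe sets of RPS22B gave smaller changes, -0.26 and -0.09, with arrays overlapping wild type. RPL27B (-0.50) and RPL28 (-0.46) were also among the 6 lowest values, both above an unadjusted p of 0.05.

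The largest positive values of all rested on wild-type array 1. RPL21B was listed at 0 on that array, and read 22225 on wild-type array 2, 3644 and 23266 on the gpr1 deletion arrays, and 20883 and 23943 on the gpa2 deletion arrays. Its values were thus near 0 on 1 wild-type array, low on gpr1 deletion array 1, and alike on the remaining 4. The log2 change of 5.93 in the gpa2 deletion (SE 2.81, adjusted p 0.476 in limma) became 0.42 when wild-type array 1 was left out and 11.38 when array 2 was. The change of 4.29 in the gpr1 deletion became -1.29 and 9.74. The large values are counted from the floor set on dim signals and measure no fold.

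RPS21A, whose 40S protein contacts Rps0, read 271.1 on wild-type array 1 and 8709 on gpr1 deletion array 1, against 27288 on wild-type array 2, 23985 on gpr1 deletion array 2, and 24638 and 26198 on the gpa2 deletion arrays. Its log2 change without GPA2 was 3.86, and 0.27 without wild-type array 1. In the gpr1 deletion its change was 2.73, and -0.92 without that array. RPL37A, of the 60S subunit, read 1396 on wild-type array 1 and 5459 on gpr1 deletion array 1, and between 17432 and 23046 on the other 4 arrays. Its change of 2.31 in the gpa2 deletion became 0.09 without wild-type array 1. RPS21B read 7239 on wild-type array 1 and between 17498 and 22367 on the other 5. Its change of 1.25 in the gpa2 deletion became 0.24 without wild-type array 1. A single array therefore decides these 4 values.

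The gaps between the arrays of a group were then read over all members. The wild-type arrays differed by more than 1 on the log2 scale in 8 members: RPL21B, RPL37A, RPL37B, RPL38, RPL7A, RPP2B, RPS21A and RPS21B. The gpr1 deletion arrays did so in 5, RPL21B, RPL37A, RPP1A, RPP2B and RPS21A, and the gpa2 deletion arrays in 0. These shares of 10%, 6.25% and 0% stand beside 9.55%, 4.13% and 5.16% of all probe sets, so that the wild-type share is that of the whole array. The gap of array 1 minus array 2 had the same sign in wild type and gpr1 deletion in 61 of 80 members. As a description over the 80 members, which share arrays, the 2 gaps correlated with r = 0.815 (Spearman 0.592), and with r = 0.505 over 76 members without the 4 genes whose wild-type gap was over 1.5. Over all 6956 probe sets tested, r was 0.203. The gaps of wild type and the gpa2 deletion correlated with r = 0.176 over the 80 members, 0.460 over the 76 and 0.404 over all probe sets, so the likeness is not confined to the gpr1 deletion. The median absolute difference over members was 0.122 between wild-type array 1 and gpr1 deletion array 1, which carry different labels, and 0.322 between the 2 wild-type arrays, beside 0.233 and 0.381 over all probe sets. Between gpr1 deletion array 2 and gpa2 deletion array 2 it was 0.108, beside 0.187. Wild-type array 1 and gpr1 deletion array 1 are those of the highest median intensity (562.9 and 525.9), and the part of brightness in these gaps was not tested.

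**Figure D2:**
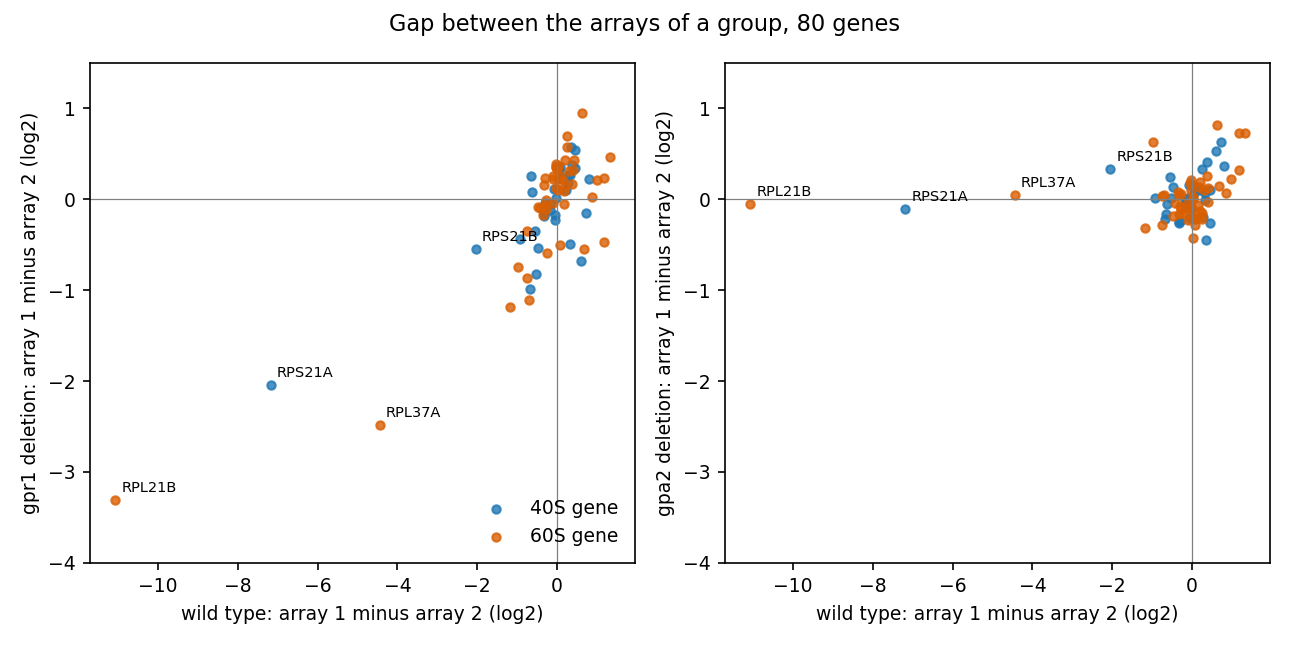
Gap between the 2 arrays of a group (array 1 minus array 2, log2) for each of the 80 genes, wild type on the horizontal axis and a deletion on the vertical axis. RPL21B, RPS21A and RPL37A lie far to the lower left for the gpr1 deletion, and no gpa2 deletion gap exceeds 1 in size.

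Probe sets of the same gene could disagree about these low readings. The probe set naming both RPS21A and RPS21B read 15693 and 16290 on the wild-type arrays, 16200 and 11714 without GPR1, and 11622 and 13072 without GPA2. It was not low on wild-type array 1, where the RPS21A probe set read 271.1. RPP1B, a stalk protein gene, has 2 probe sets, and the brighter read 23033 on wild-type array 1 while the other read 270.2. On wild-type array 2 they read 17840 and 25358. Their log2 changes in the gpa2 deletion were -0.09 and 3.21. RPL17A likewise had a chosen probe set with a change of -0.03 in the gpa2 deletion and another listed at 0 on wild-type array 1 and at 916.4 on gpr1 deletion array 1.

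Of the 80 genes, 21 have more than 1 probe set, and the changes given by probe sets of 1 gene were within 1 on the log2 scale in all but 6 of them in the gpa2 deletion. The exceptions were RPL17A, RPL17B, RPP1B, RPS0B, RPS26A and RPS7A. The median difference between the highest and lowest change of a gene was 0.334 without GPA2 and 0.179 without GPR1. RPS7A is a case where the direction depends on the probe set. Its brighter probe set read 26145 and 22531 in wild type, against 9564 and 12532 without GPA2, a log2 change of -0.56. The other read 11072 and 16454 in wild type, against 16645 and 19351 without GPA2, a log2 change of 1.04. RPS0B also depended on it, with 0.94 from the brighter probe set and -0.17 from the other. By the maker's suffixes, 50 members rest on plain probe sets, 18 on sets marked f for gene families and 12 on sets marked i for an incomplete probe selection. Signal from a near-identical partner gene cannot be told apart on the sets marked f. Whether it adds to the sets marked i was not tested.

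RPS26A, which encodes a protein at the mRNA exit channel, had another, dimmer probe set that was near 0 in wild type. It read 0.2 and 0.1 on the wild-type arrays, 0.2 and 938.6 without GPR1, and 3907 and 1563 without GPA2. Both gpa2 deletion arrays lay above all others, with an adjusted p of 0.0817 in limma. The chosen probe set of RPS26A read 14379 and 16762 in wild type, against 11079 and 10783 without GPA2, a log2 change of 0.25 after normalisation with overlapping arrays.

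**Figure D3:**
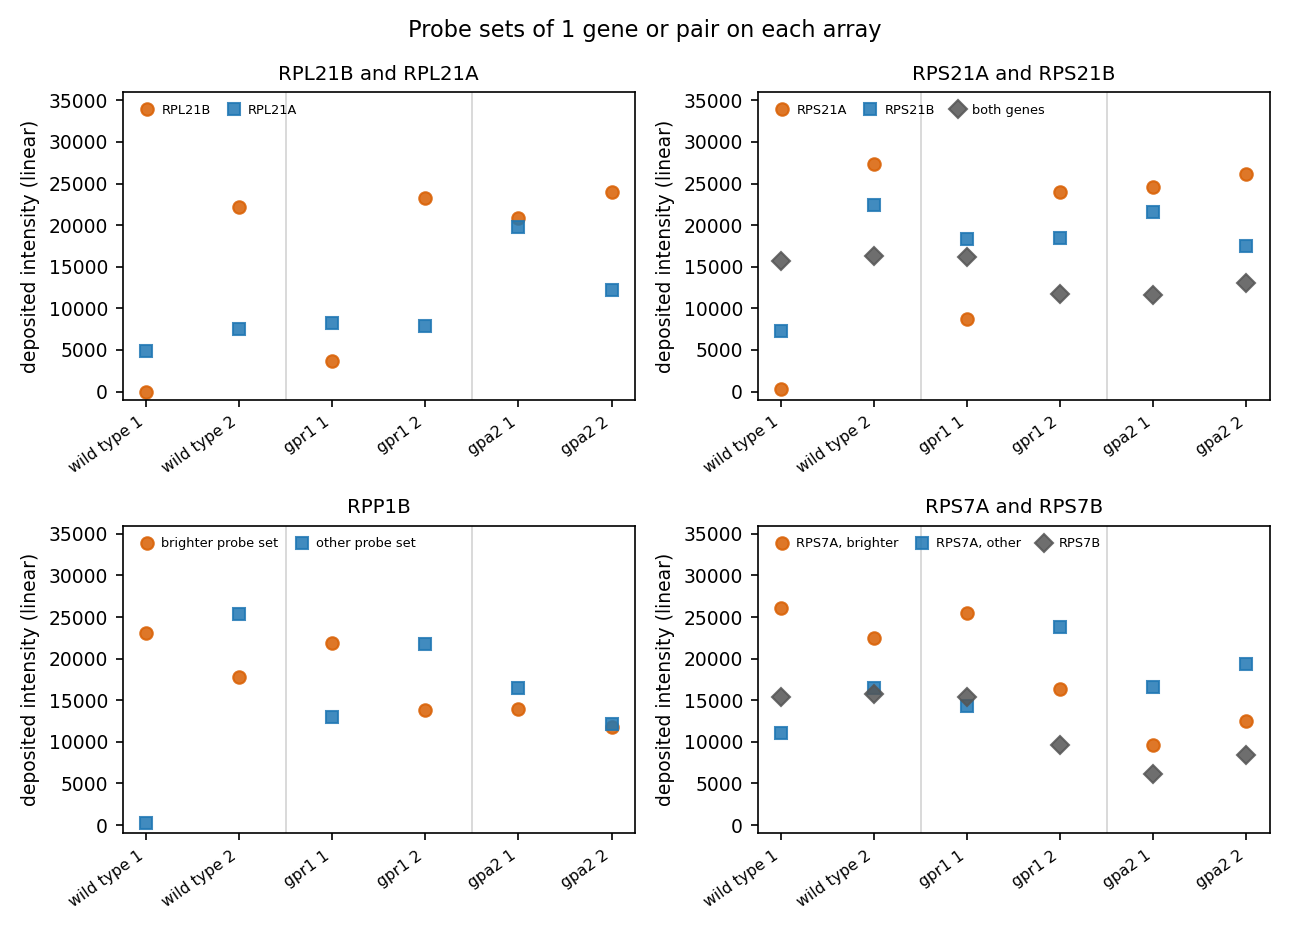
Deposited intensity (linear scale) on each of the 6 arrays for probe sets of RPL21A and RPL21B, of RPS21A, RPS21B and both, of RPP1B, and of RPS7A and RPS7B; grey lines part the groups. On wild-type array 1 RPL21B, RPS21A and the dimmer RPP1B probe set are near 0 while their companion probe sets are not.

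The stalk of the 60S subunit, which recruits the GTPase translation factors, is made of RPP0 and the acidic proteins of the RPP1 and RPP2 genes. RPP2B had log2 values of 12.77 and 13.95 on the wild-type arrays, 13.41 and 14.59 without GPR1, and 14.43 and 14.74 without GPA2. Its change was 0.64 in the gpr1 deletion, with overlapping arrays, and 1.23 in the gpa2 deletion (adjusted p 0.343 in limma), with the groups apart. Array 1 was the lower in wild type and in the gpr1 deletion by more than 1. RPP2A, its companion, gave 0.05 and -0.07, and RPP1B gave -0.01 and -0.09. RPP0, the scaffold of the stalk, read 13.66 and 14.41 on the wild-type arrays, 13.58 and 14.45 without GPR1, and 14.53 and 14.50 without GPA2. Its change was -0.02 without GPR1 and 0.48 without GPA2, and in both other groups array 1 was the low one. RPP1A gave 0.55 and 0.53, from 12.81 and 13.50 in wild type.

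RPS31, the ubiquitin fusion of the 40S subunit, had changes of 0.10 and -0.10 in the gpr1 and gpa2 deletions. The fusion genes of the 60S subunit, RPL40A and RPL40B, are on 3 probe sets that name both. These gave changes of 0.02, 0.37 and -0.13 in the gpr1 deletion and of -0.09, 0.73 and 0.01 in the gpa2 deletion.

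The 62 genes with a partner form 31 pairs in which both genes are measured, and the remaining 18 genes are single-copy. The quantity compared within a pair was the change of the A gene minus that of the B gene, since the levels of 2 probe sets cannot be set against each other. Its median size was 0.269 without GPR1 and 0.366 without GPA2. The SD of A minus B between arrays of 1 group, pooled over the groups, had a median of 0.312. The A and B genes had the same sign of change in 15 of 31 pairs in the gpr1 deletion and in 13 of 31 in the gpa2 deletion. No test across pairs was made.

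In the gpr1 deletion, the pairs with the largest differences were RPL21 (-3.50), RPS21 (1.90), RPL37 (0.95), RPP2 (-0.59), RPP1 (0.56) and RPS0 (-0.53). The smallest were those of RPS22, RPS7, RPL33 and RPL31, each within 0.02 in size. In the gpa2 deletion the 6 largest were RPL21 (-3.87), RPS21 (2.61), RPL37 (2.23), RPS22 (1.56), RPP2 (-1.30) and RPS0 (-1.24). The RPL21, RPS21 and RPL37 values rest on wild-type array 1, with an SD between arrays of 4.26, 2.19 and 2.66. RPS22 differs from these. Its A minus B was -0.92 and -1.06 on the wild-type arrays, -1.61 and -0.38 without GPR1, and 0.97 and 0.17 without GPA2, so that both gpa2 deletion arrays stood apart from the other 4. This holds for the chosen RPS22B probe set, while the other probe sets of RPS22B changed by only -0.26 and -0.09. The smallest differences in the gpa2 deletion were those of RPS27 (-0.02), RPL33 (-0.06), RPL16 (-0.06) and RPS9 (-0.06). Both genes of RPL33 and of RPS9 are read from sets marked f, where signal from the partner cannot be told apart.

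The arrays of the gpr1 deletion and wild type were apart in A minus B in 5 pairs (16.1%), and those of the gpa2 deletion and wild type in 14 (45.2%). Of all single probe sets, 32.4% and 39.7% were apart in these comparisons, in either direction. RPL36 was among the pairs apart in both deletions. Its A minus B was 0.58 and 0.67 on the wild-type arrays, 1.03 and 1.09 without GPR1, and 1.39 and 1.21 without GPA2. The difference was 0.44 and 0.68 in the deletions, with an SD between arrays of 0.09. RPL36A had changes of 0.22 and 0.44, and RPL36B of -0.22 and -0.24. RPL22 gave 0.40 and 0.37, RPS26 0.41 and 0.39, RPS29 0.47 and 0.81, and RPL24 -0.21 and -0.37, each apart from wild type in both deletions, which share the wild-type arrays.

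RPL22, whose genes are known for splicing-linked regulation between the copies, gave A minus B values of 0.76 and 1.05 on the wild-type arrays, 1.07 and 1.53 without GPR1, and 1.24 and 1.30 without GPA2. RPL22A had changes of 0.35 and 0.34, and RPL22B of -0.05 and -0.02. RPS14, another pair with regulation between copies, gave 0.34 and 0.32 with overlapping arrays. RPL7 gave -0.28 and -0.64, and RPS27 gave -0.06 and -0.02. RPL8A and RPL8B are on 3 shared probe sets, with changes in the gpa2 deletion of -0.37, -0.11 and -0.62.

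**Figure D4:**
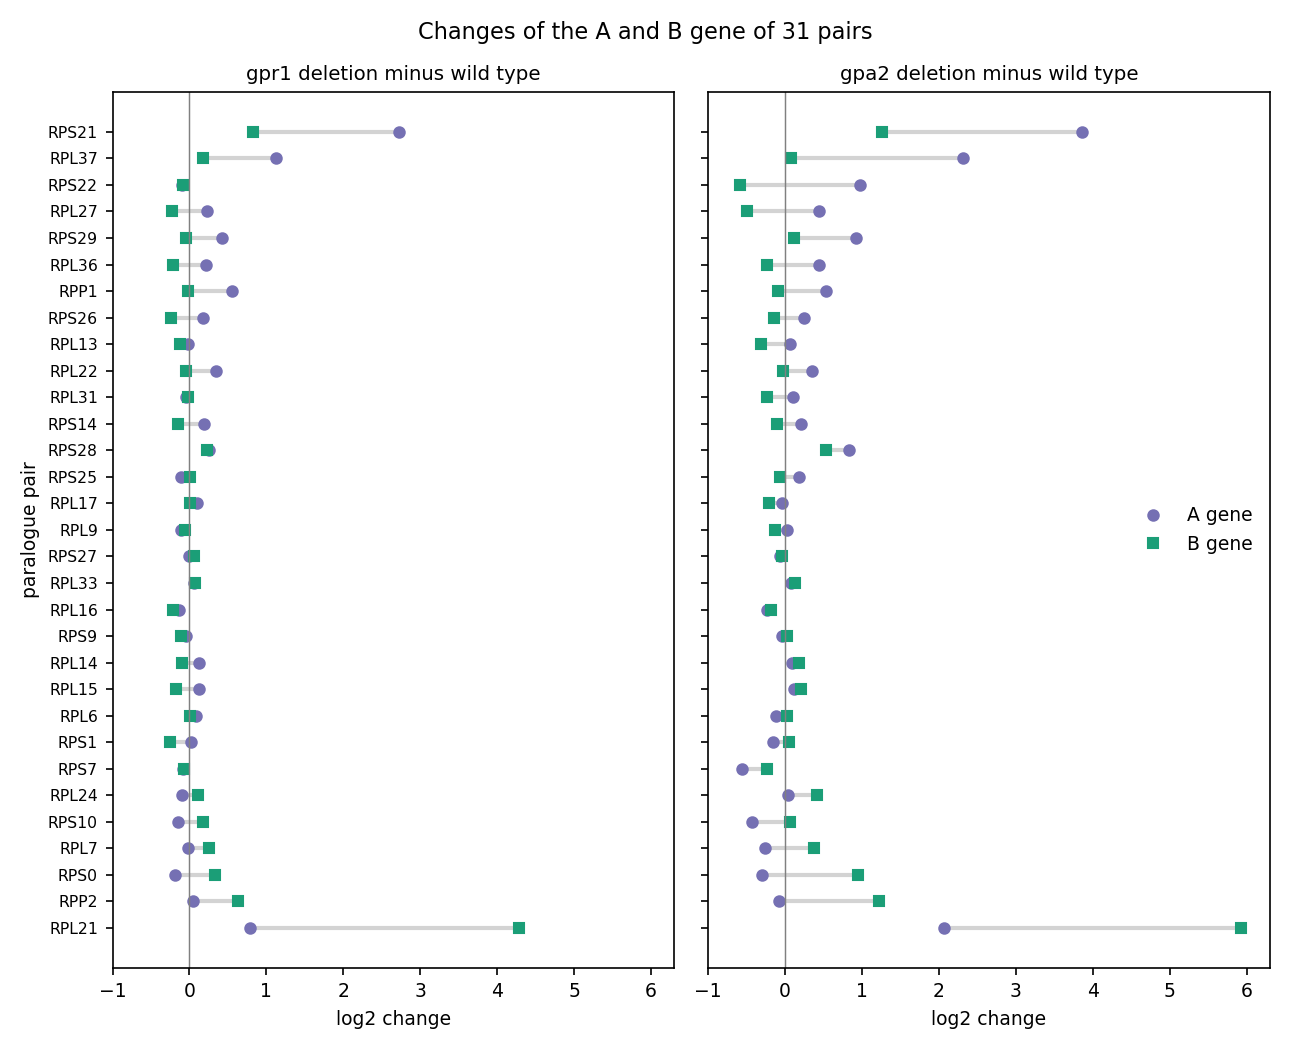
Log2 change against wild type of the A gene (circles) and the B gene (squares) of each of the 31 pairs, joined by a line, for the gpr1 and the gpa2 deletion. In most pairs the genes lie within 1 of each other; RPL21, RPS21, RPL37, RPS22, RPP2 and RPS0 are further apart than that in the gpa2 deletion.

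The A genes, the B genes and the single-copy genes had medians of 0.06, -0.02 and -0.01 in the gpr1 deletion and of 0.10, 0.02 and -0.09 in the gpa2 deletion. Single-copy genes spanned -0.27 to 0.22 in the gpr1 deletion and -0.70 to 0.65 in the gpa2 deletion. RPS2 and RPL39, described above, hold the ends of the latter range. RPL38 and RPS15, also single-copy, gave 0.18 and 0.15 in the gpa2 deletion. Between the deletions, 14 of 18 single-copy genes read lower in the gpa2 deletion after quantile normalisation, beside 41 of all 80 members and 3627 of 6956 probe sets. That direction did not hold with median or 75th percentile scaling, where 3 of 18 were lower in either, nor with loess, where 8 were.

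The 59 probe sets that name both genes of a pair gave a median log2 change of -0.07 without GPR1 and -0.07 without GPA2, and none was called at an adjusted p under 0.05 in limma. At an unadjusted p under 0.05 in the gpa2 deletion, 4 (6.78%) were higher and 2 (3.39%) lower, near the 6.10% and 5.35% of all probe sets. The highest was RPL2A with RPL2B at 1.08, which read 13163 and 22347 on the wild-type arrays, 16399 and 23742 without GPR1, and 25406 and 25533 without GPA2. Here too array 1 of wild type and of the gpr1 deletion was the low one.

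How the ribosomal protein genes as a group stand to wild type depended on the scaling. In the gpa2 deletion the median log2 change was 0.02 after quantile normalisation, 0.32 after scaling to the array median, 0.38 after scaling to the 75th percentile, 0.19 after cyclic loess and -0.66 on the values as deposited. All probe sets together moved by -1.02 on the deposited values, and the members were 0.361 above that. The number of positive members was 42 of 80 after quantile normalisation, and 62, 67, 58 and 12 under the other settings in the same order. In the gpr1 deletion the corresponding medians were -0.003, 0.08, 0.11, 0.09 and -0.21, the last beside -0.32 over all probe sets. Members stayed on 1 side of 0 under quantile, median, 75th percentile and loess scaling and with each array left out in 13 genes on the higher side and 4 on the lower in the gpr1 deletion. All probe sets did so in 22.0% and 23.2%. In the gpa2 deletion these were 24 and 9 members, and 24.9% and 26.6% of all probe sets. The values as deposited were not among these settings. Among these scalings the sign of the median in the gpa2 deletion turned only on deposited values. After quantile normalisation the median was also negative on plain probe sets (-0.0435), without wild-type array 2 (-0.0205) and without gpa2 deletion array 1 (-0.0067). Set against all probe sets, the members lay higher in the gpa2 deletion under each scaling. The difference was 0.04 after quantile normalisation, 0.188 after loess and 0.361 under the others. The quantile value became -0.01 without wild-type array 2 or without gpa2 deletion array 1, and -0.023 on plain probe sets alone (52 genes). In the gpr1 deletion it was -0.002 after quantile normalisation, 0.08 after loess and 0.11 under the others. The part played by the narrower span of bright probe sets was not tested.

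**Figure D5:**
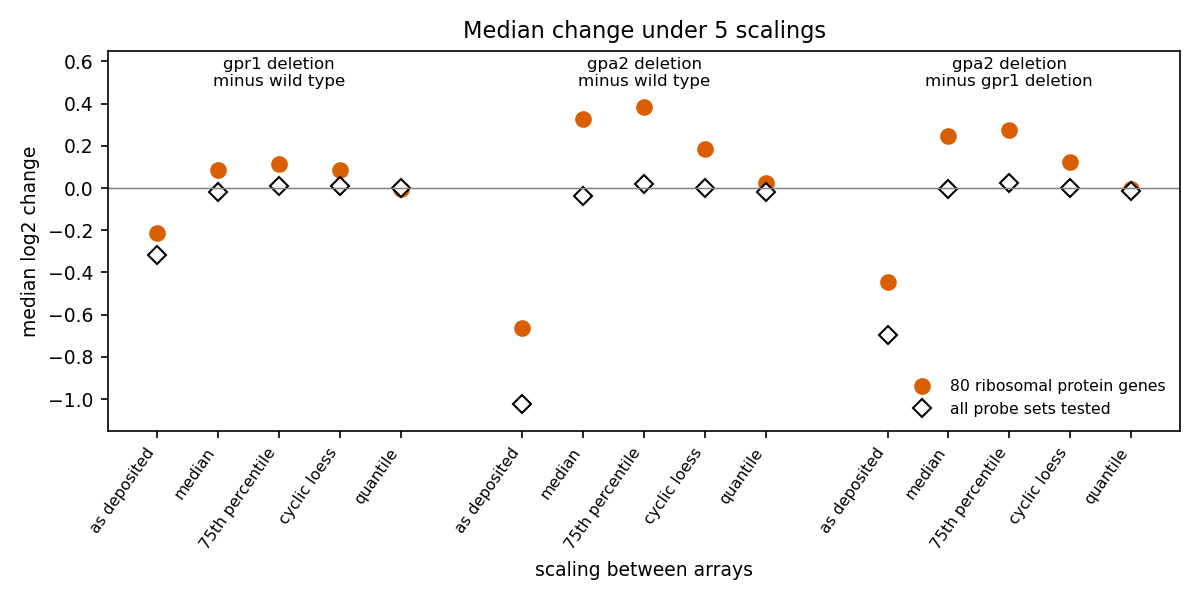
Median log2 change of the 80 ribosomal protein genes and of all probe sets tested in each comparison, under quantile normalisation and the other scalings. The member medians lie near 0 after quantile normalisation, above 0 after median, 75th percentile and loess scaling, and below 0 on deposited values.

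Genes that serve the same ribosomes were read from lists, with 0 called at an adjusted p under 0.05 in limma in any of them. Of 52 ribosome assembly factors, 44 had a negative log2 change without GPR1 (median -0.19) and 49 without GPA2 (median -0.41). Of all 6956 probe sets, 3483 and 3625 were negative. At an unadjusted p under 0.05 in limma, 1 and 14 of the 52 were lower, against 3.02% and 5.35% of all probe sets. In the gpr1 deletion leaving out 1 array moved the median, to -0.09 (35 of 52 negative) without gpr1 deletion array 2 and to -0.32 without gpr1 deletion array 1, and 33 of 51 were negative without wild-type array 1. The gpa2 deletion median stayed between -0.41 and -0.48 under median, 75th percentile and loess scaling, and between -0.41 and -0.51 with each array left out. RRP36, of the small-subunit processome, gave -1.20 and -1.81, and NOP7, of 60S assembly, -0.66 and -0.95. A list of 7 genes was drawn up for dedicated chaperones of ribosomal proteins. It includes RTS1, a regulatory subunit of protein phosphatase 2A, which is no such chaperone. All 7 listed genes were negative in the gpa2 deletion (median -0.34). Of these, 5 were negative without wild-type array 1 and 6 with 75th percentile or loess scaling, and the median was -0.76 without wild-type array 2. The list holds TSR2, which carries Rps26, at -0.82, and ACL4, which carries Rpl4, at -0.80. Of 33 translation factors, 25 were negative in the gpa2 deletion (median -0.14), with TIF4631, an eIF4G gene, at -0.96, and HYP2, the eIF5A gene, at 0.84. Without wild-type array 1, 17 of the 33 were negative.

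Among mitochondrial ribosomal proteins, which form a separate ribosome, 67 of 67 had a positive change in each deletion, with medians of 0.46 and 0.46. Over all probe sets, 3473 and 3331 of 6956 were positive. At an unadjusted p under 0.05 in limma, 19 and 20 of the 67 were higher, against 3.62% and 6.10% of all probe sets. In both deletions 0 were lower, against 3.02% and 5.35%. The medians were between 0.41 and 0.48 under median, 75th percentile and loess scaling and between 0.36 and 0.54 with each array left out. On deposited values they were 0.12 and -0.57, beside -0.32 and -1.02 over all probe sets. MRP4 gave 1.52 and 1.38, and MRPL27 gave 1.06 and 0.92. Both sets of values use the same wild-type arrays, and between the deletions the median was 0.01. The 19 regulators of ribosomal protein genes measured had medians of 0.02 and 0.01, with 0 at an unadjusted p under 0.05, and the 5 ribosome-bound chaperones 0.04 and -0.01, also with 0.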

How the data were processed

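Intensities of 6 single-colour arrays, deposited by the authors as 1 value per probe set on a linear scale, were used, grouped by the titles. How the authors summarised and scaled them is not stated in the labels. Genes were named from the platform's annotation, and all 80 members matched the R64 gene table by symbol. Of 9335 probe sets, 60 controls were left out. Values were quantile normalised, raised to a floor at the pooled 10th percentile (an intensity of 8.94) and put on a log2 scale from the deposited intensities. Probe sets with a mean under the 25th percentile (log2 6.16), 2319 in all, were left out, which left 6956. limma 3.58.1 in R 4.3.3 fitted 1 coefficient per group, with a trended eBayes (3 residual and 5.52 prior degrees of freedom), and p-values were Benjamini-Hochberg adjusted over all 6956. An exact permutation of 2 against 2 arrays cannot go below 0.333 (two-sided), so none is given. The fit was tested on simulated data.

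The members and lists were chosen with earlier results of these data known. Genes named are, in each comparison, the 6 highest and 6 lowest, the members past the threshold, the 4 brightest and 4 dimmest, the stalk and ubiquitin fusion genes, the most and least different pairs, chosen pairs, and examples from lists. RPS7A, RPP1B, RPS0B, RPL17A and RPS26A probe sets, RPL36, and members at an unadjusted p under 0.05 were added after their values were seen. Alternatives were other scalings, floors, filters, thresholds, probe set choices, a replicate block and leaving out arrays. The number of arrays limits the precision.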

Additional observations from a re-analysis of the deposited data

How the results depend on the processing

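The median log2 change of the members moved with the scaling. In the gpr1 deletion it was -0.21 on deposited values, 0.0845 with median scaling, 0.11 with 75th percentile scaling and 0.0861 with loess. In the gpa2 deletion it was -0.66, 0.32, 0.38 and 0.19, and between the deletions -0.44, 0.25, 0.28 and 0.12. On plain probe sets alone it was -0.0435 in the gpa2 deletion and -0.0344 between the deletions. Leaving out each array in turn gave -0.0159 to 0.0362 in the gpr1 deletion, -0.0205 to 0.0612 in the gpa2 deletion and -0.0712 to 0.0595 between the deletions. The number of members called was 0 to 3 in the gpr1 deletion and 0 to 5 in the gpa2 deletion over those arrays. The highest counts came without wild-type array 2, and were RPL21B, RPS21A and RPS21B in the gpr1 deletion, with RPL21A and RPL37A also in the gpa2 deletion. Without wild-type array 1, only RPL21A was called. A fit with an array left out keeps 1 array in that group, which is assumed to vary like the other groups. The counts of members called with an array left out therefore cannot show whether members stand out from other probe sets. On deposited values 2 members were called in the gpr1 deletion, RPL21B and RPS21A, both higher. Over all 6956 probe sets, 15 were higher and 9 lower there. In the gpa2 deletion 4 members were called, 3 higher (RPL21B, RPL37A and RPS21A) and 1 lower (RPL39). Over all probe sets, 19 were higher and 107 lower. With a floor at the 25th percentile, RPL21A alone was called in the gpa2 deletion, beside 39 higher and 23 lower over all probe sets. A threshold of 0.1 also called RPL21A alone, beside 66 higher and 43 lower.

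The labels do not say that the replicate numbers pair the arrays. With the replicate number as a block, 1 member was called in the gpa2 deletion, RPL21A (adjusted p 0.0386 in limma), and 0 in the other comparisons. Over all 6956 probe sets, the block gave 72 higher and 51 lower in the gpa2 deletion. Over all probe sets the gaps between same-numbered arrays correlated with r of 0.203, 0.404 and 0.209.

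Leaving out both arrays of brightest median, a setting chosen after seeing the data, keeps 1 wild-type and 1 gpr1 deletion array, each assumed to vary like the gpa2 deletion arrays, with 1 residual degree of freedom. The medians were 0.0282, 0.0639 and 0.0429. The members called were 2 in the gpr1 deletion (RPP1A and RPS29A), 9 without GPA2 (8 higher, 1 lower) and 1 between the deletions (RPL21A). These are 2.5%, 11.25% and 1.25% of members, beside 2.57%, 6.31% and 0.331% of all probe sets. The cause of these differences was not tested. Groups of 2 arrays limit every comparison, and shared sequence between partners limits what a probe set says of 1 gene.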
